A study of Mus musculus with 8 samples.

Results

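The 10 genes described here belong to the bone morphogenetic protein (BMP) pathway and were measured in RNA-seq libraries of mouse incisor tissue. They are the ligands *Bmp2*, *Bmp4* and *Bmp7*, the receptor-activated Smads *Smad1* and *Smad5*, the inhibitory Smads *Smad6* and *Smad7*, and the secreted antagonists *Nog* (noggin), *Fst* (follistatin) and *Grem1* (gremlin 1). They were chosen by gene symbol, and all 10 were found among the 23358 gene rows of the deposited table. Values were RPKM (read counts divided by gene length and by library size), so levels can be compared between genes only as far as the deposited gene lengths hold. Those lengths were 3046 bases for *Smad1* and 7175 for *Smad5*, where the GENCODE annotation gives 6262 and 7420 exon bases. All 10 were among the 14148 genes tested, which had to reach 1 RPKM in 2 or more of the 8 libraries. *Grem1* reached that minimum only through 2 libraries of cKO tail tissue and 1 of cKO head tissue.

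The study deleted *Med1*, a subunit of the Mediator complex that links enhancers to RNA polymerase, from keratin-expressing epithelium. Conditional knockout (cKO) mice carried floxed *Med1* exons 8 to 10 and Cre under the *Krt14* promoter, while control (Ctrl) mice were littermates without Cre, all 4 weeks old and on the C57BL/6 strain. From the cervical loop at the root end of the incisor, the head (CLH, the stem cell region) and the tail (CLT, where their progeny differentiate) were dissected, giving 4 groups (Ctrl CLH, cKO CLH, Ctrl CLT and cKO CLT) of 2 libraries each from mice of 2 litters, with the sexes not distinguished. The labels call the samples dental epithelial cells and do not say which animals or which litter each library came from, so p-values measure the spread between these libraries, which may be technical in part.

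BMP ligands bind paired type I and type II receptor kinases, which phosphorylate SMAD1 and SMAD5. These then join SMAD4, enter the nucleus and switch on target genes such as the *Id* family. SMAD6 and SMAD7 block the pathway inside the cell and are themselves induced by it, whereas noggin and gremlin 1 hold BMPs away from their receptors outside the cell and follistatin binds mainly activins. In the tooth, BMP signals pass between epithelium and mesenchyme and are known for roles in ameloblast and odontoblast differentiation, and in skin the balance between BMPs and noggin is a known regulator of hair follicle growth.

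The libraries held between 26591612 and 34420180 reads, as recovered from RPKM and gene length. *Med1* itself went against the label in tail tissue, with a mean RPKM of 9.05 in the libraries labelled cKO CLT and 6.77 in Ctrl CLT (log2 fold change 0.42, limma adjusted p = 0.357), and had means of 7.07 in cKO CLH and 8.42 in Ctrl CLH. The deposited values cover whole genes, so the deleted exons could not be looked at on their own. Summed cell type markers differed by at most 1.35-fold among the 4 head libraries, except for the cornified epidermis list (5.12 and 8.90 in Ctrl CLH, 8.99 and 13.5 in cKO CLH), and moved with the group in tail tissue. The summed RPKM of 7 enamel epithelium genes was 84584 and 37392 in Ctrl CLT against 19.7 and 15.8 in cKO CLT, and that of 6 odontoblast and bone genes was 1115 and 1228 against 1.43 and 1.13, with *Ibsp* listed at 0 in cKO CLT. The 5 hair keratin genes summed to 2693 and 9.80 in Ctrl CLT 1 and Ctrl CLT 2 and to 7897 and 8679 in cKO CLT, and 6 skeletal muscle genes to 567 and 36.8 against 1596 and 1786. The melanocyte list (5 genes) gave 130 and 8.62 against 401 and 402, the cornified epidermis list (4 of 5 genes found) 219 and 3.69 against 659 and 670, and the general mesenchyme list (11 genes) 2897 and 4152 against 2282 and 2532. In Ctrl CLT 1 the hair, muscle, melanocyte and cornified epidermis sums were far above those of Ctrl CLT 2 and the head libraries, at 32.5% to 33.5% of the cKO CLT mean, against 0.118% to 2.17% in Ctrl CLT 2. Whether Ctrl CLT 1 holds only the tissue its label names was not tested, and every comparison with Ctrl CLT rests in part on it. The Ctrl CLT libraries differed from each other by more than 1.5-fold in RPKM + 1 for 34.6% of the genes tested, against 0.763% to 1.12% in the other groups. The epithelium list (6 genes) gave 1752 and 912 in the Ctrl tail and 2633 and 3030 in the cKO tail. The cKO CLT pair was also the lowest for the endothelium (55.0 and 54.0 against 56.8 to 89.4 in the 6 other libraries), leukocyte (95.8 and 90.4 against 117 to 163) and erythroid lists (4.28 and 5.12 against 6.05 to 8.45). The dermal papilla list (5 genes) gave 278 and 378 against 33.8 and 32.6, mostly through *Alpl*, while *Corin*, *Lef1* and *Rspo3* were higher without overlap in cKO CLT, by 3.63-fold, 4.01-fold and 2.55-fold in mean RPKM (adjusted p = 0.0826, 0.0826 and 0.0976), and the median log2 fold change of the list was 0.71. The odontoblast gene *Dspp* had a mean RPKM of 594 in Ctrl CLT. All 12 marker sums differed without overlap between cKO CLT and Ctrl CLT and between cKO CLT and cKO CLH. Between Ctrl CLT and Ctrl CLH 6 did (enamel epithelium, epithelium, muscle, melanocyte, hair and dermal papilla). Between cKO CLH and Ctrl CLH 8 marker sums did (enamel epithelium, epithelium, mesenchyme, odontoblast and bone, erythroid, cornified epidermis, hair and dermal papilla). Their part in the results was not tested. In such bulk samples fewer cells of a type and less RNA per cell cannot be told apart.

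The ligands, together with *Smad5*, were the most abundant members by mean RPKM in the head and in Ctrl CLT. *Bmp2* (chromosome 2, 133553199 to 133562885, mm10) measured 33.0 and 32.5 RPKM in the Ctrl head, 35.5 and 31.8 in the cKO head, 18.2 and 41.2 in the Ctrl tail, and 10.7 and 9.80 in the cKO tail. The cKO CLT libraries were the lowest of the 8, and the Ctrl CLT libraries lay 2.27-fold apart on either side of the head libraries. *Bmp4*, on chromosome 14 (46383520 to 46390599), measured 40.6 and 39.3 RPKM in the Ctrl head, 35.2 and 40.7 in the cKO head, 45.3 and 46.8 in the Ctrl tail, and 20.9 and 22.3 in the cKO tail. Its Ctrl CLT pair was the highest and its cKO CLT pair the lowest, with a spread within each pair of at most 1.15-fold. *Bmp7*, on chromosome 2 (172869687 to 172940293), measured 36.4 and 29.9 RPKM in the Ctrl head, 37.0 and 38.4 in the cKO head, 45.5 and 52.3 in the Ctrl tail, and 32.5 and 37.8 in the cKO tail. Here Ctrl CLT stood above the other 3 groups, and cKO CLT overlapped both head groups. Summed over the 3 ligands, the RPKM was 102 to 140 in the 6 other libraries and 64.1 and 69.9 in cKO CLT.

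Of the Smads that carry the BMP signal, *Smad5* (chromosome 13, 56703010 to 56742378) was the more abundant, measuring 29.7 and 28.5 RPKM in the Ctrl head, 30.4 and 27.6 in the cKO head, 27.6 and 37.1 in the Ctrl tail, and 20.0 and 18.9 in the cKO tail. *Smad1* (chromosome 8, 79338398 to 79399468) measured 11.4 and 12.4, 12.4 and 11.3, 12.1 and 15.4, and 17.7 and 16.9 in the same order of groups. The cKO CLT libraries were thus the lowest of the 8 for *Smad5* and the highest for *Smad1*.

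The inhibitory Smads differed in how much they varied. *Smad6*, on chromosome 9 (63953076 to 64022059), measured 12.8 and 12.6 RPKM in the Ctrl head, 19.5 and 17.0 in the cKO head, 7.89 and 14.2 in the Ctrl tail, and 4.35 and 5.16 in the cKO tail. The cKO libraries held both extremes, the highest in the head and the lowest in the tail, and the Ctrl CLT libraries lay 1.80-fold apart. *Smad7*, on chromosome 18 (75367365 to 75395934), measured 10.9 and 9.84 RPKM in the Ctrl head, 11.1 and 10.4 in the cKO head, 10.1 and 11.2 in the Ctrl tail, and 10.3 and 10.4 in the cKO tail. Its group means spanned only 0.05 on the log2(RPKM + 1) scale, placing it 14127th of the 14148 genes tested by that range, whereas *Nog* (1.75) and *Smad6* (1.74) were 2135th and 2140th.

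Of the antagonists, *Nog* and *Grem1* were the least abundant members in every library. *Nog* (chromosome 11, 89300638 to 89302559), whose product binds BMP2, BMP4 and BMP7, measured 1.86 and 2.83 RPKM in the Ctrl head, 3.01 and 3.03 in the cKO head, 2.12 and 2.09 in the Ctrl tail, and 0.186 and 0.210 in the cKO tail. These last values rested on 10 and 11 reads, against 107 to 195 reads in the other 6 libraries. *Fst*, on chromosome 13 (114452262 to 114458730), measured 5.69 and 6.21 RPKM in the Ctrl head, 6.28 and 5.53 in the cKO head, 13.0 and 9.32 in the Ctrl tail, and 15.9 and 14.6 in the cKO tail. All 4 tail libraries lay above all 4 head libraries for *Fst*. *Grem1*, on chromosome 2 (113748675 to 113758648), measured 0.869 and 0.636 RPKM in the Ctrl head, 1.14 and 0.991 in the cKO head, 0.334 and 0.551 in the Ctrl tail, and 1.83 and 1.97 in the cKO tail. Its counts were 16 to 88 reads, lowest in Ctrl CLT and highest in cKO CLT.

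**Figure D1:**
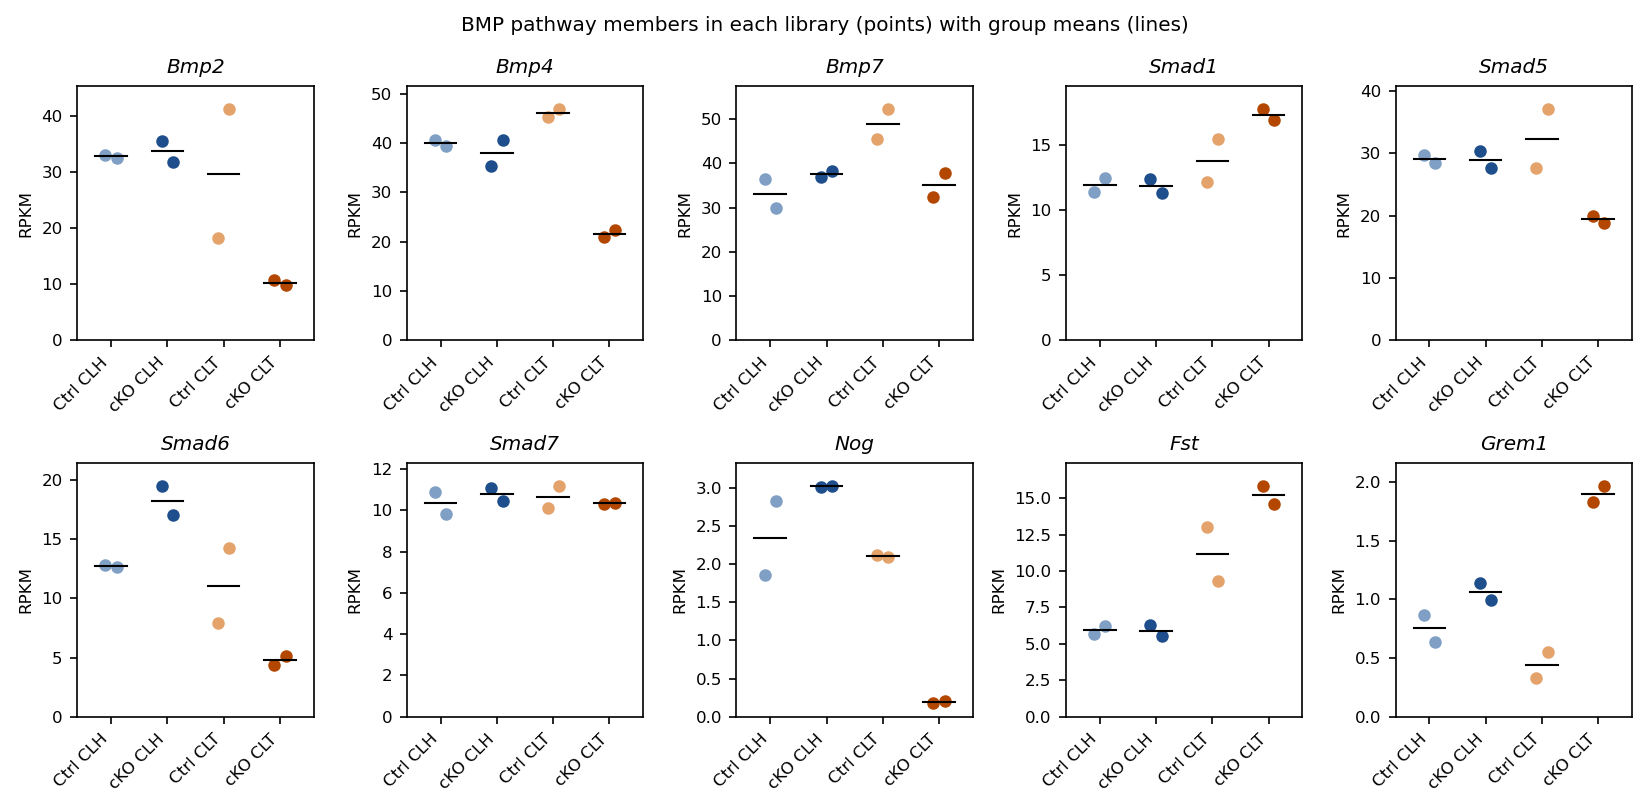
RPKM (vertical axes, linear from 0 and scaled separately for each gene) of the 10 members in the 8 libraries, with 1 point for each library and a line at the mean of each group of 2. The cKO CLT points are lowest for *Bmp2*, *Bmp4*, *Smad5*, *Smad6* and *Nog* and highest for *Smad1*, *Fst* and *Grem1*, while all *Smad7* points lie between 9.84 and 11.2.

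The order of the groups can be read from these values. For *Bmp4*, Ctrl CLT lay at the top, the head groups overlapped in the middle and cKO CLT lay apart at the bottom, as it did for *Smad5*, for which the other 3 groups overlapped. For *Nog*, cKO CLH (mean 3.02) was followed by Ctrl CLH (2.34) and Ctrl CLT (2.10), which overlapped, and cKO CLT (0.198) came last. For *Grem1* the order was cKO CLT (1.90), cKO CLH (1.06), Ctrl CLH (0.752) and Ctrl CLT (0.442), with no overlap between neighbours. For *Smad7* all 4 groups lay within 9.84 to 11.2, and neighbouring groups overlapped.

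RefSeq start sites on GRCm38.p6 (the mm10 assembly) were used for 5 of the 10 members: *Bmp4*, *Smad1*, *Smad5*, *Smad6* and *Grem1*. The other members were not searched for motifs, which does not mean that each lacks a listed start. The 250 bases upstream of the start are shown, 5′ to 3′ on the gene's own strand, for 3 genes. These are a ligand and an inhibitory Smad that were lowest in cKO CLT and an antagonist that was highest there, as *Fst* also was. All 3 genes lie on the minus strand, and the windows are chr14:46390670-46390919 for *Bmp4*, chr9:64022060-64022309 for *Smad6* and chr2:113758649-113758898 for *Grem1*. Capitals mark the motifs searched on both strands, GGCGCC (a GC-rich Smad element, its own reverse complement) and CAGAC (the Smad-binding element, read as GTCTG on the other strand).
Bmp4: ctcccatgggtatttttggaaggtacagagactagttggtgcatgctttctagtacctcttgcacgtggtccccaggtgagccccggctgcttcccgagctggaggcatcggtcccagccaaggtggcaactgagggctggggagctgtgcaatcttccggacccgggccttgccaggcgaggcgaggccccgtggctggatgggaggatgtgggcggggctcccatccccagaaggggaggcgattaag
Smad6: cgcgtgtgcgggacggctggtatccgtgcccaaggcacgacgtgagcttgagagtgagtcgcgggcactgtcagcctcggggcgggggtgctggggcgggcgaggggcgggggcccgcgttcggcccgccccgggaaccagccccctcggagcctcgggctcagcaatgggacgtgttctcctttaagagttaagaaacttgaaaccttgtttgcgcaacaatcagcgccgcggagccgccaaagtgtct
Grem1: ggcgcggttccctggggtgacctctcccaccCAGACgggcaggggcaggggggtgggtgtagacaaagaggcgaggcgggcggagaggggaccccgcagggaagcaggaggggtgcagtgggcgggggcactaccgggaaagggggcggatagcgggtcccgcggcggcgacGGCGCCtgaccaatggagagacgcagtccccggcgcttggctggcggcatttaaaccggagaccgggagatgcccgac
Neither motif occurred in the *Bmp4*, *Smad6* or *Smad1* window, which says only that these letters are absent there. The *Grem1* window held 1 GGCGCC, beginning 78 bases before the start, and 1 CAGAC, beginning 219 bases before it. *Smad5* has 3 listed starts, of which 1 window held GGCGCC and another CAGAC. Over 32851 starts of 27025 genes, 9.59% of windows of this length held GGCGCC, 42.2% held CAGAC and 3.60% held both. GC content was 63.2% for *Bmp4*, 66.8% for *Smad6* and 72.0% for *Grem1*. The *Bmp4* row of the deposited table ends at 46390599, short of the RefSeq start, so its gene model begins elsewhere.

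The first comparison set cKO against Ctrl in the progeny tissue. On the log2(RPKM + 1) scale, which understates the change of low genes such as *Nog* and *Grem1*, mean levels in cKO CLT were lower than in Ctrl CLT for 7 members and higher for 3, but no member passed the threshold of adjusted p under 0.05 (limma on 2 against 2 libraries, Benjamini-Hochberg over all genes tested). Of the 10, 7 had an unadjusted p under 0.05, where 36.2% of all genes tested did, and voom on the recovered reads also called none. Among all genes tested, 0.0777% were called higher and 1.68% lower. The largest differences among the ligands were those of *Bmp2* (log2 fold change -1.34, SE 0.42, adjusted p = 0.115) and *Bmp4* (-1.06, SE 0.14, adjusted p = 0.057), with mean RPKM 2.89-fold and 2.14-fold lower. For *Bmp7* it was -0.47 (SE 0.16, adjusted p = 0.133). *Nog* had the most negative value of the members (-1.37, SE 0.17, adjusted p = 0.0564), and its mean RPKM was 10.6-fold lower, from 2.10 to 0.198.

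The Smads pointed in different directions in the same comparison. The log2 fold change was -1.02 for *Smad6* (SE 0.32, adjusted p = 0.114) and -0.69 for *Smad5* (SE 0.20, adjusted p = 0.102). *Smad1* had 0.32 (SE 0.18, adjusted p = 0.268). *Smad7* had -0.04 (SE 0.15, adjusted p = 0.868), with a 95% confidence interval of -0.46 to 0.38 that leaves room for a change of that size either way, and its sign turned to 0.01 after median-of-ratios scaling. *Grem1* had 1.01 (SE 0.19, adjusted p = 0.0701), a mean RPKM 4.29-fold higher. It was tested only because cKO libraries reached the minimum of 1 RPKM, so none of its tests is independent of the filter. *Fst* had 0.43 (SE 0.21, adjusted p = 0.222). Without Ctrl CLT 1 or Ctrl CLT 2 the value was 0.65 or 0.21 for *Fst* and 0.15 or 0.48 for *Smad1*.

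The groups did not overlap for 9 of the 10 members, lower in cKO CLT for *Bmp2*, *Bmp4*, *Bmp7*, *Smad5*, *Smad6* and *Nog* and higher for *Smad1*, *Fst* and *Grem1*. Over all genes tested 35.1% were lower without overlap and 37.2% higher, and with groups of 2 the smallest p that an exact 2-sided permutation test allows is 0.333. The median log2 fold change of the 10 members was -0.58, beside -0.01 over all genes tested. The Ctrl CLT libraries set much of the error. Without Ctrl CLT 1, 8 members passed (*Fst* and *Grem1* higher, and *Bmp2*, *Bmp4*, *Bmp7*, *Smad5*, *Smad6* and *Nog* lower), and without Ctrl CLT 2, 7 passed (*Smad1* and *Grem1* higher, and *Bmp2*, *Bmp4*, *Smad5*, *Smad6* and *Nog* lower). In both, the lone control was assumed to vary like the cKO pair. Without either cKO CLT library none passed. The log2 fold change ran from -1.91 without Ctrl CLT 1 to -0.77 without Ctrl CLT 2 for *Bmp2* and from -1.41 to -0.63 for *Smad6*. When all 8 libraries shared 1 estimate of the spread, 7 members passed, *Grem1* higher and *Bmp2*, *Bmp4*, *Bmp7*, *Smad5*, *Smad6* and *Nog* lower. With the replicate number as a block, *Nog* passed alone.

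**Figure D2:**
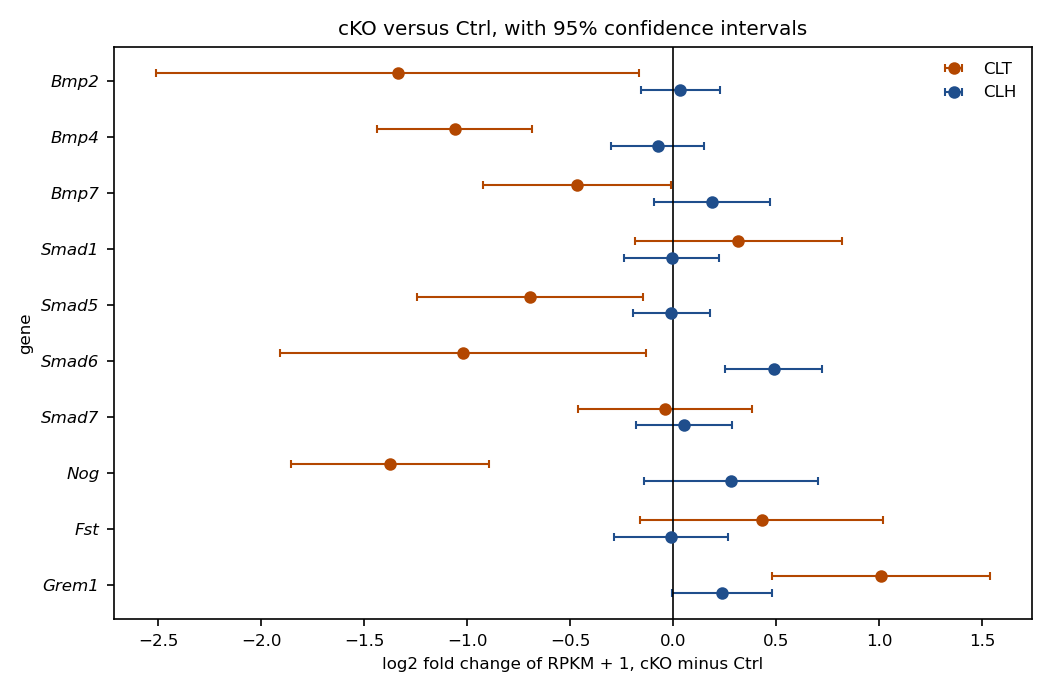
Log2 fold change of RPKM + 1, cKO minus Ctrl (horizontal axis), for each member (vertical axis) in CLT and in CLH, with bars for the 95% confidence interval of the limma fit. In CLT the values run from -1.37 (*Nog*) to 1.01 (*Grem1*), and in CLH from -0.07 (*Bmp4*) to 0.49 (*Smad6*).

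In the head, where stem cells reside, the same comparison gave small differences. No member was called, and none of all genes tested (0% higher and 0% lower), by limma or by voom. *Smad6* had the largest difference (log2 fold change 0.49, SE 0.09, unadjusted p = 0.00356, adjusted p = 0.688), being 1.44-fold higher in mean RPKM in cKO CLH, and it was the only member with an unadjusted p under 0.05, beside 7.26% of all genes tested. *Nog* (0.28), *Grem1* (0.24) and *Bmp7* (0.19) also had groups without overlap, all higher in cKO CLH, so that 4 of 10 members were higher without overlap where 19.9% of all genes tested were higher and 18.8% lower. With 1 library left out these values went down to 0.070 for *Nog* (without Ctrl CLH 1), to 0.14 for *Grem1* and to 0.051 for *Bmp7* (both without Ctrl CLH 2). The other 6 members had log2 fold changes between -0.07 and 0.05 and overlapping groups. For *Bmp2*, 3.28-fold apart between head and tail of cKO mice, the 95% confidence interval of the difference in the head was -0.16 to 0.23.

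The tissues were then compared within each genotype. In Ctrl mice no member was called between CLT and CLH (limma; voom also called none), and 2 had an unadjusted p under 0.05. These were *Fst*, at 0.79 on the log2 scale (SE 0.21, adjusted p = 0.335), and *Bmp7*, with 0.55 (SE 0.17, adjusted p = 0.349). Of all genes tested, 0.00707% were called higher and 0% lower, and 13.1% had an unadjusted p under 0.05. Groups did not overlap for *Bmp4*, *Bmp7* and *Fst* (higher in CLT, as for 15.2% of all genes tested) and for *Grem1* (lower, as for 36.8%). The median over all genes tested was -0.13, which median-of-ratios scaling moved to 0.01, and *Nog* (-0.09) turned to 0.03 with it. *Bmp2* (-0.25) and *Smad6* (-0.24) turned to 0.32 and 0.15 without Ctrl CLT 1. Without Ctrl CLT 2, 3 members were called, *Fst* higher and *Bmp2* and *Smad6* lower, while no member was called without any other single library.

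In cKO mice the tail differed from the head for 8 of the 10 members, and all 8 were called under every alternative and without any single library. *Fst* rose by 1.23 on the log2 scale (SE 0.10, adjusted p = 8.82e-06), *Smad1* by 0.51 (SE 0.09, adjusted p = 0.00107) and *Grem1* by 0.49 (SE 0.10, adjusted p = 0.00278). The *Grem1* call is not independent of the filter, which this gene passed mainly through the cKO tail, where it was highest. *Nog* fell by 1.75 (SE 0.10, adjusted p = 8.75e-07), a 15.3-fold difference in mean RPKM. *Smad6* fell by 1.74 (SE 0.11, adjusted p = 1.96e-06) and *Bmp2* by 1.62 (SE 0.10, adjusted p = 1.11e-06). *Bmp4* fell by 0.78 (SE 0.10, adjusted p = 0.00012) and *Smad5* by 0.55 (SE 0.09, adjusted p = 0.000619). *Bmp7* (-0.10, adjusted p = 0.36) and *Smad7* (-0.05, adjusted p = 0.616) did not pass. These 8 calls stand beside 28.9% of all genes tested called higher and 45.1% lower, so a share of this size was also that of the background. Without overlap, 3 members were higher and 6 lower, *Smad7* among the latter, where 34.5% of all genes tested were higher and 52.3% lower. The median over all genes tested was -0.18, moved to 0.01 by median-of-ratios scaling, under which *Bmp7* and *Smad7* turned to 0.11 and 0.14 and the calls over all genes shifted from 4084 higher and 6384 lower to 5233 and 4928.

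**Figure D3:**
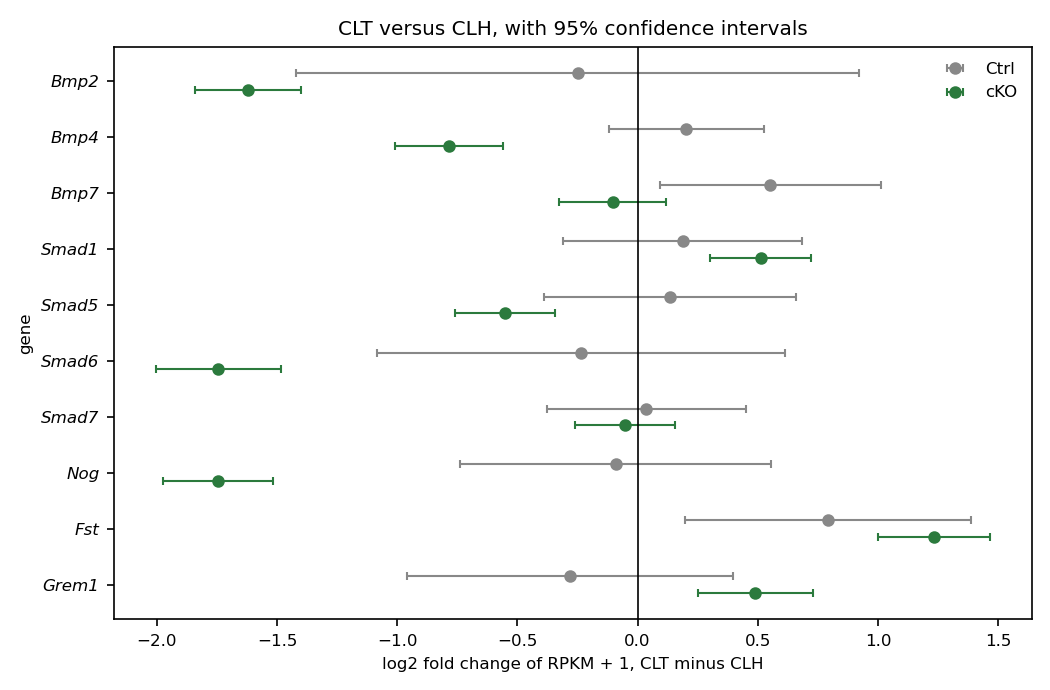
Log2 fold change of RPKM + 1, CLT minus CLH (horizontal axis), for each member (vertical axis) in Ctrl and in cKO mice, with bars for the 95% confidence interval of the limma fit. The Ctrl intervals are wide for *Bmp2* (-1.42 to 0.92) and *Smad6* (-1.09 to 0.61), and in cKO mice *Nog*, *Smad6* and *Bmp2* lie below -1.39.

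Whether the difference between cKO and Ctrl, called the cKO effect here, was the same in tail and head was tested over all 8 libraries with an interaction term. This fit used 1 estimate of the spread of each gene for all 4 groups, although the Ctrl CLT libraries lay further apart. They differed by more than 1.5-fold in RPKM + 1 for 34.6% of the genes tested, against 0.763% to 1.12% in the other groups. The error that comes from Ctrl CLT may thus be understated. The cKO effect was lower in CLT than in CLH for *Nog* (difference of log2 fold changes -1.65, SE 0.24, adjusted p = 0.0117), *Smad6* (-1.51, SE 0.36, adjusted p = 0.0377) and *Bmp4* (-0.99, SE 0.14, adjusted p = 0.0116). No member was called in the other direction, although *Grem1* (0.77, adjusted p = 0.0544) lay close to the threshold and was called higher with no filter on low values, after median-of-ratios scaling and with no variance trend. Also close were *Bmp7* (-0.66, adjusted p = 0.0625), *Smad5* (-0.69, adjusted p = 0.0678) and *Bmp2* (-1.37, SE 0.48, adjusted p = 0.0906). Over all genes tested 9.58% were called lower and 8.05% higher. *Smad1* (0.32, adjusted p = 0.26), *Fst* (0.44, adjusted p = 0.224) and *Smad7* (-0.09, adjusted p = 0.696) did not pass. For *Smad6* the values behind the difference were 0.49 in the head and -1.02 in the tail, and its call was lost with the replicate number as a block (adjusted p = 0.0563) and with no filter on low values (0.0502). Over the alternatives that kept all libraries, the adjusted p ranged from 0.00864 to 0.0269 for *Bmp4*, from 0.0285 to 0.0563 for *Smad6* and from 0.00534 to 0.0268 for *Nog*. Leaving out a library other than Ctrl CLT ended most of these calls. None held without Ctrl CLH 1, cKO CLH 2, cKO CLT 1 or cKO CLT 2, only *Nog* held without Ctrl CLH 2 and only *Bmp4* without cKO CLH 1, while 8 members passed without Ctrl CLT 1 and 8 without Ctrl CLT 2.

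Ratios of members within a library, which do not depend on how libraries were scaled, set cKO CLT apart from all other libraries for 5 of the 7 pairs looked at. The share over pairs of genes at large was not counted, so this count has no background. Among single genes tested, 37.2% were higher and 35.1% lower without overlap in cKO CLT against Ctrl CLT. *Smad5* over *Smad1* was 2.28 to 2.61 in the 6 other libraries and 1.13 and 1.12 in cKO CLT. Ctrl CLT 1, at 2.28, was close to Ctrl CLT 2 (2.40) by this measure, and also for *Bmp7* over *Bmp4*. For all other pairs looked at, Ctrl CLT 1 and Ctrl CLT 2 lay further apart. They had 2.51 and 1.27 for *Bmp7* over *Bmp2*, 2.50 and 1.14 for *Bmp4* over *Bmp2*, and 39.1 and 16.9 for *Fst* over *Grem1*. *Smad6* over *Smad7* was 1.17 and 1.28 in the Ctrl head, 1.76 and 1.63 in the cKO head, 0.780 and 1.27 in the Ctrl tail, and 0.421 and 0.498 in the cKO tail. *Bmp7* over *Bmp4* was 0.760 to 1.12 in the 6 other libraries and 1.55 and 1.69 in cKO CLT. *Bmp7* over *Bmp2* was 0.919 to 2.51 in the 6 other libraries and 3.03 and 3.86 in cKO CLT. *Bmp4* over *Bmp2* did not set cKO CLT apart, with 1.95 and 2.28 there and 2.50 in Ctrl CLT 1, nor did *Fst* over *Grem1*, with 8.67 and 7.41 there and 5.51 to 39.1 in the other libraries. *Fst* over *Nog* was 1.83 to 3.06 in the head libraries, 6.16 and 4.45 in the Ctrl tail and 85.4 and 69.5 in the cKO tail. The summed RPKM of the antagonists was 8.42 to 10.4 in the head, 15.5 and 12.0 in the Ctrl tail and 17.9 and 16.8 in the cKO tail, and most of it was *Fst*.

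**Figure D4:**
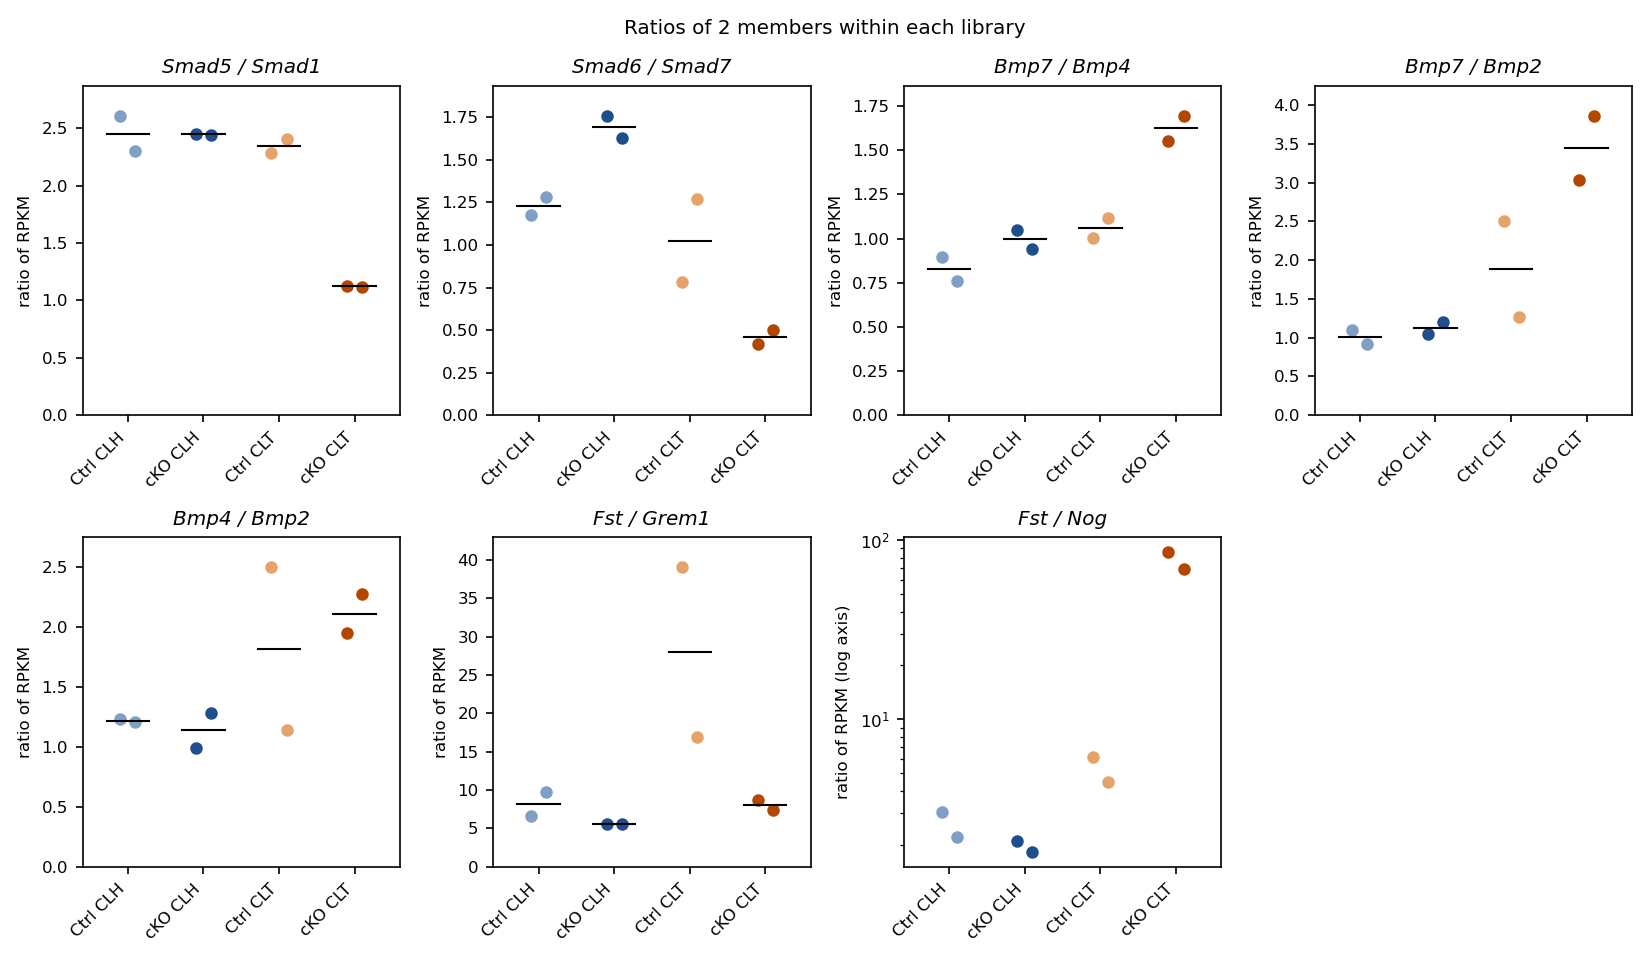
Ratio of the RPKM of paired members within each library (vertical axes, from 0 except for *Fst* / *Nog*, which is on a log axis), with 1 point for each library and a line at the group mean on the linear axes. The cKO CLT libraries lie apart in all panels but *Bmp4* / *Bmp2* and *Fst* / *Grem1*, at 1.13 and 1.12 for *Smad5* / *Smad1* and at 85.4 and 69.5 for *Fst* / *Nog*.

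Other genes of the pathway were described from lists of ligands, receptors, extracellular modulators, Smad partners and targets. Among 11 further BMP and GDF ligands, 6 were tested in cKO CLT against Ctrl CLT and *Bmp3*, a ligand known to oppose other BMPs, fell by 2.18 (SE 0.16, adjusted p = 0.0347). It measured 12.8 and 11.8 RPKM in the Ctrl tail, 1.93 and 1.93 in the cKO tail and 5.28 to 6.30 in the head. The extremes of this list were *Gdf5* (-2.37, adjusted p = 0.0788) and *Bmp8a* (0.59, adjusted p = 0.107). Of 18 other antagonists and modulators, 15 were tested and *Chrd*, which encodes the BMP-binding protein chordin, fell by 1.57 (SE 0.17, adjusted p = 0.0486). *Chrd* measured 4.06 and 4.29 RPKM in the Ctrl tail and 0.762 and 0.716 in the cKO tail. The highest value of this list was that of *Rgma* (1.84, adjusted p = 0.105), and its median was -0.39.

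None of the 8 receptor genes tested passed in that comparison by limma, and their median was -0.05. An unadjusted p under 0.05 was found for 3 of them, beside 36.2% of all genes tested. They ran from *Acvrl1* (-0.63, adjusted p = 0.249) to the activin receptor gene *Acvr1b* (1.05, adjusted p = 0.0922). The main type I BMP receptor gene *Bmpr1a* had means of 32.2 in cKO CLT and 29.5 in Ctrl CLT (0.15, SE 0.27, adjusted p = 0.693). Among 7 Smad partners and turnover genes none passed by limma, and 3 had an unadjusted p under 0.05, beside the same 36.2%. The extremes were *Smad9* (-1.86, adjusted p = 0.111), the third BMP-activated Smad, and *Tob1* (1.09, adjusted p = 0.0601), whose product restrains BMP signalling. *Smad9* measured 1.76 and 7.10 RPKM in the Ctrl tail and 0.299 and 0.307 in the cKO tail. Of the activin subunit genes, whose products follistatin binds, *Inhba* had -0.88 (adjusted p = 0.13) and *Inhbb* 0.21 (adjusted p = 0.435).

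The 9 genes known to be induced by BMP signalling were all measured and all had negative log2 fold changes in cKO CLT against Ctrl CLT, with a median of -1.20. None passed by limma, 7 had an unadjusted p under 0.05 (36.2% of all genes tested), and 8 were lower without overlap (35.1% of all genes tested). *Id1* had a mean RPKM of 35.2 in cKO CLT and 70.9 in Ctrl CLT (log2 fold change -0.99, SE 0.14, adjusted p = 0.0605), and *Id3* had 61.6 and 143 (-1.20, SE 0.16, adjusted p = 0.0588). The lowest and highest of the list were *Hey1* (-4.20, SE 0.56, adjusted p = 0.0601), at 2.43 and 71.2, and *Msx2* (-0.20, SE 0.15, adjusted p = 0.386), at 73.4 and 84.3. In cKO CLH against Ctrl CLH the median was 0.18, 7 of 9 values were positive and none passed by limma, 4 having an unadjusted p under 0.05 (7.26% of all genes tested). The cKO effect was lower in CLT than in CLH for 7 of the 9 by the interaction term, beside 9.58% of all genes tested, led by *Hey1* (-4.34, adjusted p = 0.0119), *Dlx5* (-3.94, adjusted p = 0.00987) and *Msx1* (-1.68, adjusted p = 0.0466), and with *Id1*, *Id2*, *Id3* and *Id4* between -1.20 and -1.62. *Msx2* (-0.17) and *Atoh8* (-0.55) did not pass. *Dlx5*, *Msx1* and *Hey1* are also expressed in tooth mesenchyme. The odontoblast and bone sum and the mesenchyme sum given above were also lower in cKO CLT than in Ctrl CLT. Of the 11 mesenchyme genes, 9 had negative and 2 positive log2 fold changes there. The part of these cell types in the target gene values was not tested.

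**Figure D5:**
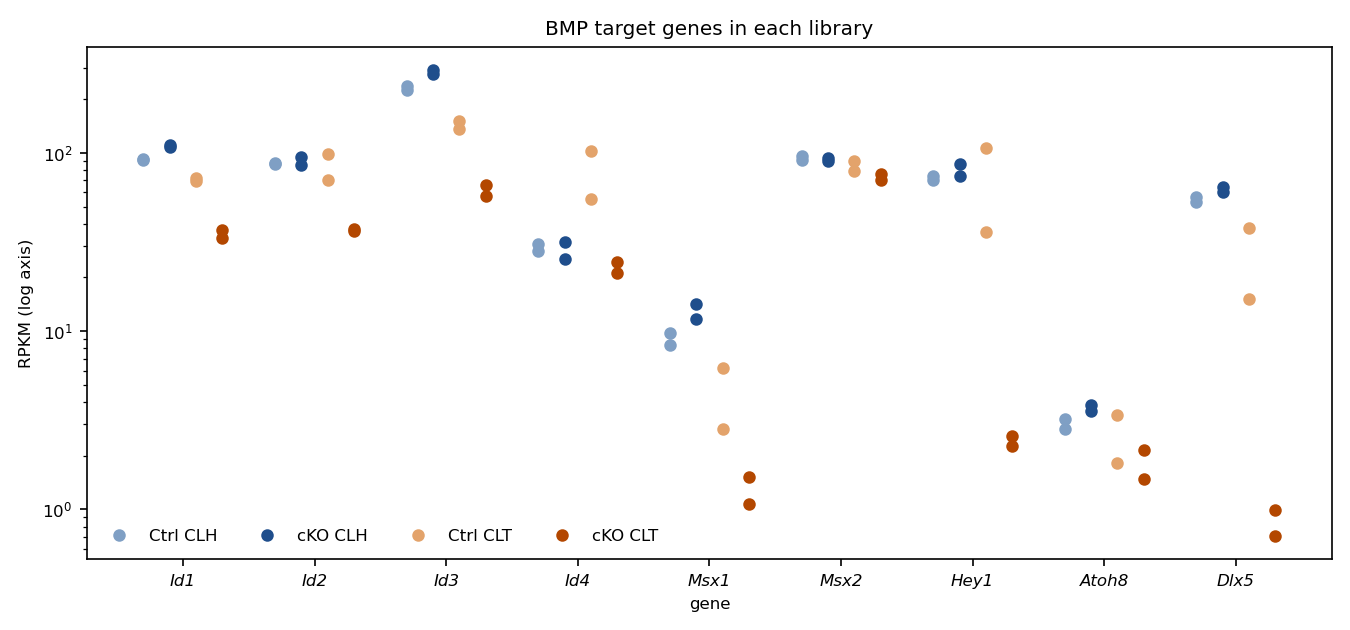
RPKM (vertical axis, log scale) of the 9 BMP target genes (horizontal axis) with 1 point for each of the 8 libraries, coloured by group. The cKO CLT points are the lowest for all genes but *Atoh8*, whose tail groups overlap, and for *Msx2* they lie close to the other groups (70.4 to 95.9 over all libraries).

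By the interaction term, other genes of these lists also passed, beside 9.58% of all genes tested called lower and 8.05% higher. *Gdf5* (-2.68, adjusted p = 0.0342) and *Bmp3* (-2.15, adjusted p = 0.00262) were lower among the ligands. *Chrd* (-1.69, adjusted p = 0.00438), *Fstl1* (-1.51, adjusted p = 0.0431) and *Bambi* (-0.99, adjusted p = 0.0107), which encodes a receptor-like inhibitor, were lower among the modulators, and *Rgmb* (1.02, adjusted p = 0.016), a BMP co-receptor gene, was higher. Of the Smad partners *Skil* was lower (-1.32, adjusted p = 0.0253) and *Tob1* higher (1.02, adjusted p = 0.0226). No receptor gene passed by limma, 2 having an unadjusted p under 0.05, beside 38% of all genes tested. Between CLT and CLH of cKO mice the counts for these lists stand beside 28.9% of all genes tested that rose and 45.1% that fell. In that comparison 4 of 6 other ligands fell, led by *Bmp5* (-2.51, adjusted p = 1.23e-07), *Gdf5* (-1.79, adjusted p = 8.28e-07) and *Bmp3* (-1.18, adjusted p = 9.49e-06). Of the 15 modulators 9 fell and 3 rose, and those that fell included *Fstl1* (-1.96, adjusted p = 2.66e-07) and *Chrd* (-1.71, adjusted p = 1.01e-06). Of the 9 targets 8 fell, led by *Dlx5* (-5.10, adjusted p = 2.57e-09), *Hey1* (-4.56, adjusted p = 4.32e-09) and *Msx1* (-2.61, adjusted p = 4.86e-07). Of 8 receptor genes 4 fell and 3 rose, the largest being *Acvr1b* (1.18, adjusted p = 8.14e-06), *Acvrl1* (-1.10, adjusted p = 2.03e-05) and *Eng* (-0.90, adjusted p = 0.00015). Of 7 Smad partners 4 fell and 2 rose, the largest being *Smad9* (-2.43, adjusted p = 1.93e-07), *Tob1* (1.54, adjusted p = 5.87e-06) and *Skil* (-0.84, adjusted p = 0.000652), and of the activin subunits *Inhbb* rose by 1.38 (adjusted p = 4.27e-06) and *Inhba* fell by 0.70 (adjusted p = 0.000665).

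*Nog* and *Smad6* were the members with the widest range between group means on the log2(RPKM + 1) scale. The genes with the pattern most like theirs were found by the smallest Euclidean distance of centred log2(RPKM + 1) over the 8 libraries. For *Nog* these were *Tcp11* (distance 0.270), *Tmem17* (0.290) and *B9d2* (0.311). *Tcp11* had an RPKM of 2.16 to 3.62 in the 6 other libraries and of 0.385 and 0.378 in cKO CLT. For *Smad6* they were *Vasn* (0.269), *Arhgef10* (0.384) and *Zfp652* (0.402), and *Vasn* had 21.0 and 37.4 in Ctrl CLT, 12.3 and 14.5 in cKO CLT and 33.4 to 42.4 in the head. The 8 points include libraries of the same tissue and genotype and are not independent draws of a pattern.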

How the data were processed

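Total RNA of 8 libraries from mouse incisor cervical loops was sequenced on the Illumina HiSeq 4000. The authors deposited 1 table of RPKM per gene with coordinates and length, and per the labels used FastQC 0.72, Trim Galore 0.4.3.1, STAR 2.6.0b-1, featureCounts 1.6.3 and DESeq2 2.11.40.2 on mm10. The annotation, the strand setting and the total behind each RPKM are not given in the sources used here. GENCODE exons of *Bmp4* share 89 bases with *Gm15217* on the opposite strand and those of *Fst* share 115 with *Gm47040*, whose reads cannot be told apart without strand. Those of *Smad5* share 100 bases with *Gm27301* on the same strand, where the strand of a read would not help.

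The log2(RPKM + 1) values were tested with limma 3.58.1 in R 4.3.3 (variance trend, p-values adjusted by Benjamini-Hochberg, calls under 0.05), on the 4 libraries of each pairwise comparison and on all 8 for the interaction. RPKM times length gave whole reads within 0.01 for 100% of values in every library (22330512 to 28651106 reads on genes), which entered the voom alternative. The code was tested on simulated data. Python 3.11.15 and matplotlib 3.10.9 served for sequences and plots.

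The members, the pathway and marker lists and the tests were chosen with earlier results of these data known. Named genes were all members, *Med1*, pathway genes past the threshold (the 3 largest where more passed), each pathway list's highest and lowest value in CLT, and the 3 genes most like each of the 2 members of widest range in log2(RPKM + 1). Further genes (*Dspp*, *Alpl*, *Corin*, *Lef1*, *Rspo3*, *Ibsp*, *Id1* to *Id4*, *Atoh8*, *Bmpr1a*) were named after their values were seen, and a gene that the rule would name among the modulators is not reported here. The table held no *Hbb-bs*, *Hbb-bt* or *Flg* row. Alternatives were pseudocounts of 0.5 and 0.1, other filters and scalings, a fit of all 8 libraries, the replicate number as a block, variances without a trend, voom, and leaving out each library.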

Additional observations from a re-analysis of the deposited data

Results flagged for a closer look

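The test of the difference between the cKO effect in CLT and that in CLH picked out 3 members, all in the direction of a lower effect in the tail. The difference was -0.99 for *Bmp4*, -1.51 for *Smad6* and -1.65 for *Nog* on the log2(RPKM + 1) scale (limma interaction term, adjusted p = 0.0116, 0.0377 and 0.0117). That fit shared 1 estimate of the spread over all groups, which may understate the error from the Ctrl CLT libraries. In cKO CLT against Ctrl CLT alone, none of the 3 passed by limma (adjusted p = 0.057, 0.114 and 0.0564 in the same order). The *Smad6* call was lost with the replicate block (adjusted p = 0.0563) and with no filter on low values (0.0502), and all 3 were lost without Ctrl CLH 1, cKO CLH 2, cKO CLT 1 or cKO CLT 2. For *Bmp4* and *Nog* the 4 head libraries and the Ctrl CLT pair lay within 35.2 to 46.8 and 1.86 to 3.03 RPKM, and the cKO CLT pair alone lay below them. For *Smad6* the cKO pair was the higher one in the head (19.5 and 17.0 against 12.8 and 12.6) and the lower one in the tail (4.35 and 5.16 against 7.89 and 14.2). Summed enamel epithelium markers (19.7 and 15.8 in cKO CLT against 84584 and 37392 in Ctrl CLT) and hair markers (7897 and 8679 against 2693 and 9.80) moved with the same libraries, and their part in these differences was not tested.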

How the results depend on the processing

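The number of members called in cKO CLT against Ctrl CLT was 0 and rose to 7 with all 8 libraries in 1 fit, to 1 (*Nog*) with the replicate block and to 1 (*Nog*) with no variance trend. It ran from 0 to 8 when each library was left out in turn. It stayed 0 with the other pseudocounts, filters and scalings and with voom. Between CLT and CLH in Ctrl it ran from 0 to 3 with a library left out, and in cKO it was 8 throughout. The interaction called 5 members after median-of-ratios scaling and 2 (*Bmp4* and *Nog*) with the replicate block. With no filter on low values it called *Bmp4*, *Nog* and *Grem1* but not *Smad6*. The number also changed with the library that was left out, and the cause of these changes was not tested. Over all genes tested, cKO CLT against Ctrl CLT gave 11 higher and 237 lower, 3352 and 2831 with all 8 libraries in 1 fit, 888 and 856 with the replicate block, 0 and 3 with no filter on low values, and 0 and 0 by voom. Without Ctrl CLT 1 it gave 4445 and 5393, without Ctrl CLT 2 4121 and 3248, and without either cKO CLT library 0 and 11.

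In cKO CLT against Ctrl CLT, *Smad7* turned to 0.0075 with median-of-ratios scaling and 0.011 with voom, and ran from -0.11 to 0.029 with a library left out. In Ctrl tissue *Nog* turned to 0.026 with median-of-ratios scaling and *Smad7* to -0.0021 with voom. In cKO tissue *Bmp7* turned to 0.11 and *Smad7* to 0.14 with median-of-ratios scaling, and *Smad7* to 0.043 with quantile normalization. With a library left out, values in CLH ran from -0.042 to 0.11 for *Bmp2*, -0.18 to 0.026 for *Bmp4*, -0.067 to 0.054 for *Smad1*, -0.075 to 0.059 for *Smad5*, -0.016 to 0.12 for *Smad7* and -0.089 to 0.067 for *Fst*. Between tissues in Ctrl they ran from -0.82 to 0.32 for *Bmp2*, -0.073 to 0.34 for *Smad5*, -0.62 to 0.15 for *Smad6*, -0.031 to 0.10 for *Smad7* and -0.30 to 0.12 for *Nog*, and in cKO from -0.21 to 0.0037 for *Bmp7*.

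The labels share replicate numbers 1 and 2 but do not say that a number marks a litter. The correlation over genes of the difference between replicates was 0.307 between head and tail of cKO mice and 0.195 between those of Ctrl mice. Between groups of different genotype it ranged from -0.192 to 0.066. Whether head and tail libraries of 1 number came from the same mice is not stated. The main fits did not pair the samples by number and treated the libraries as independent. With the replicate block the calls in CLH (0), between tissues in Ctrl (0) and between tissues in cKO (8) were the same in number. With 2 libraries a group, and 10 and 11 *Nog* reads in cKO CLT, the depth limits *Nog* and *Grem1* most.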
